A study of Homo sapiens with 2 samples.

Results

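Ferritin, the transferrin receptor and 2 further iron genes were compared between vehicle-treated and ebastine-treated C4-2 cells. The members were the rows named FTH1, FTL, TFRC, LCN2 and HMOX1 in the deposited table, 5 of its 1947 genes. They were chosen from this same vehicle to ebastine contrast, so their values describe the libraries and carry no test here. C4-2 is a long-established line of human prostate cancer cells, a derivative of LNCaP that still makes the androgen receptor. Ebastine is an antihistamine that blocks the histamine H1 receptor, and the series title presents it as acting on the histone methyltransferase EZH2. Polyadenylated RNA of cells at passage 10 to 15 was sequenced. The vehicle group and the ebastine group were grown in the same medium with serum and each held 1 library, so there is no spread between replicates, and neither dose nor duration of ebastine is given in the sources used here.

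Iron enters most cells on transferrin, which binds the transferrin receptor and is taken into acidified endosomes, and iron that is not used at once is stored in the shell of ferritin heavy and light chains. The iron regulatory proteins bind a short RNA hairpin, the iron-responsive element. In the 5′ UTR of ferritin messages this binding blocks translation, and in the 3′ UTR of the transferrin receptor message it protects the transcript from decay. Ferritin and haem oxygenase genes are also known targets of the stress factor NRF2, and lipocalin 2 is a secreted protein that carries iron bound to siderophores and is induced by NF-kB in many epithelia.

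The hairpin letters of the transferrin receptor and the ferritin light chain are shown because iron regulatory proteins are known to act on both messages. The search took C, then NNNNN, then the loop CAGTGN, then 5 bases able to pair with the NNNNN, G-T pairs included, on the sense strand of protein-coding transcripts in GENCODE release 29 (GRCh38). Capitals mark the loop, and each sequence is written in the sense of the transcript, plus strand for FTL and minus strand for TFRC. FTL held 1 match in its 5′ UTR and TFRC held 4 in its 3′ UTR, all in the longest protein-coding transcript of the gene.
FTL 5′ UTR match 1, chr19:48965336-48965364: tcttgcttcaaCAGTGTttggacggaaca
TFRC 3′ UTR match 1, chr3:196050978-196051006: attatcggaagCAGTGCcttccataatta
TFRC 3′ UTR match 2, chr3:196050574-196050602: attatcgggagCAGTGTcttccataatgt
TFRC 3′ UTR match 3, chr3:196050509-196050537: tgtatcggagaCAGTGAtctccatatgtt
TFRC 3′ UTR match 4, chr3:196050462-196050490: attatcgggaaCAGTGTttcccataattt
Of 19669 protein-coding genes, 291 held such a match anywhere in a transcript, or 1.48%, and TFRC was the only 1 with 4 or more. LCN2 had 0 matches, and the matches of FTH1 and HMOX1 are not given here. A match describes letters and was not tested for binding.

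Both ferritin chains were higher in the ebastine library, and the heavy chain by more than the light chain. FTH1 encodes the heavy chain, which oxidises ferrous iron for storage (hg19 chromosome 11, 61717356 to 61735132). It measured 2301 FPKM in the vehicle library and 5731 FPKM in the ebastine library, where FPKM counts fragments per kilobase of transcript for every 1000000 that mapped. The ebastine level was 2.49-fold the vehicle level; this and the other folds are ratios with 1 FPKM added to both values unless stated. By level, FTH1 went from rank 6 among the listed genes with vehicle to rank 1 with ebastine, and its share of the summed FPKM of all listed genes went from 2.57% to 6.42%. FTL encodes the light chain, which helps the iron core form (hg19 chromosome 19, 49468566 to 49470136). It measured 328 FPKM in the vehicle library and 539.7 FPKM in the ebastine library, a 1.65-fold ratio. The heavy to light chain ratio of FPKM within a library does not depend on the scaling between libraries. That ratio was 7.03 with vehicle and 10.6 with ebastine, 1.51 times higher.

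The ferritin values depend on how reads from near-identical copies were assigned, a step not given in the sources used here. GENCODE release 29 names 25 pseudogenes for FTH1 and 16 for FTL, and under the same naming 0 for TFRC, LCN2 and HMOX1. The FTH1 locus that the authors' software reported spans 17.8 kb, while the RefSeq gene in GRCh38.p14 is 3.35 kb long, so the reported value can include other transcripts. The other 4 loci differed little from their RefSeq length, for example 32.9 kb against 32.8 kb for TFRC. No other listed gene overlapped any of the 5 loci.

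**Figure D1:**
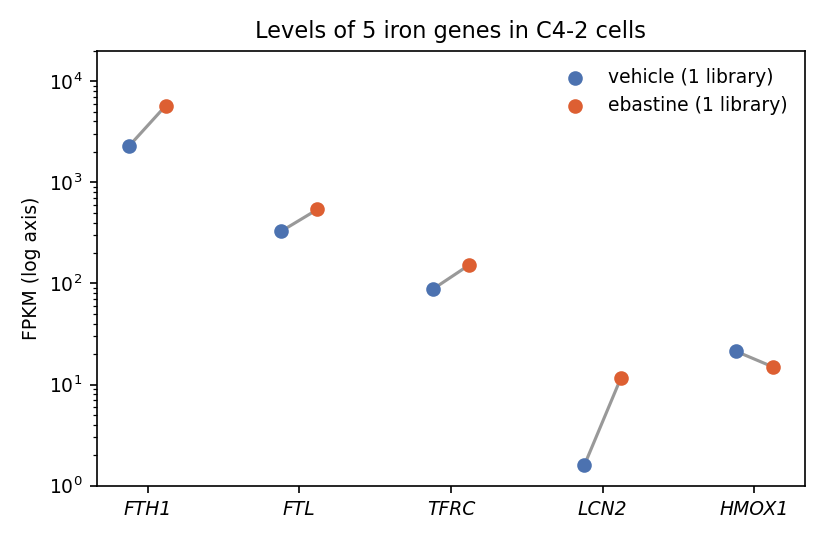
FPKM on a log axis of the 5 genes in the vehicle library and the ebastine library; each point is 1 library and the line joins the libraries. FTH1 stands highest in both, at 2301 and 5731 FPKM, and HMOX1 is the gene with the lower value in ebastine.

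TFRC and LCN2, the members that act in iron uptake, were both higher in the ebastine library. TFRC, the transferrin receptor (hg19 chromosome 3, 195776155 to 195809032), measured 87.6 FPKM in the vehicle library and 152 FPKM in the ebastine library, a 1.73-fold ratio. The FTL to TFRC ratio of FPKM was 3.74 with vehicle and 3.55 with ebastine. LCN2, lipocalin 2 (hg19 chromosome 9, 130911732 to 130915734), measured 1.61 FPKM in the vehicle library and 11.6 FPKM in the ebastine library. Its level was low in the vehicle library and moderate in the ebastine library. The ratio of the deposited LCN2 values was 7.23, and it was 4.84 after 1 FPKM was added to both values. That placed LCN2 at rank 3 from the top among the 1768 listed genes with a mean FPKM of 1 or more.

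HMOX1 went the other way. HMOX1, haem oxygenase 1, breaks haem down and releases its iron (hg19 chromosome 22, 35777060 to 35790207). It measured 21.3 FPKM in the vehicle library and 14.99 FPKM in the ebastine library, a 1.39-fold lower level. That placed HMOX1 only at rank 489 from the bottom among the 1768 listed genes with a mean FPKM of 1 or more. Of those genes 57.0% were lower with ebastine. Within the libraries, FTL was 15.4 times HMOX1 with vehicle and 36.0 times with ebastine. In both libraries the order from high to low was FTH1, FTL, TFRC, HMOX1 and LCN2, but LCN2 came close to HMOX1 only with ebastine, at 0.774 of its FPKM against 0.0754 with vehicle. With 1 library per group it cannot be said which neighbours in this order differ beyond their spread.

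In log2((ebastine FPKM + 1)/(vehicle FPKM + 1)), the ratios were 1.32 for FTH1, 0.72 for FTL, 0.79 for TFRC, 2.27 for LCN2 and -0.48 for HMOX1. The median of the 5 was 0.79, and that of all 1768 genes was -0.32. Of the 5 members, 4 were at least 1.5-fold higher, where 9.67% of the 1768 genes were. None was at least 1.5-fold lower, where 18.6% of the genes were. At a limit of 2-fold, FTH1 and LCN2 remained higher, where 1.81% of the genes were, and none was lower by that much, where 4.86% were. The split of all genes depends on the scaling between libraries: 171 were at least 1.5-fold higher and 328 lower as deposited, and 715 higher and 123 lower after centring on the median ratio of those with a mean FPKM of 10 or more. In the authors' deposited table the p-value was 5e-05 and the q-value 0.00178 for FTH1, FTL, TFRC and LCN2. For HMOX1 the authors' deposited table gives a p-value of 0.00215 and a q-value of 0.0397. A q-value under 0.05 with a higher value in ebastine was held by 15.6% of the listed genes, and with a lower value by 25.4%. These p-values come from 1 library per group and compare the libraries, and the table lists only genes with a p-value under 0.05. RNA came from whole cultures, so a change in every cell and a change in some cells cannot be told apart.

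**Figure D2:**
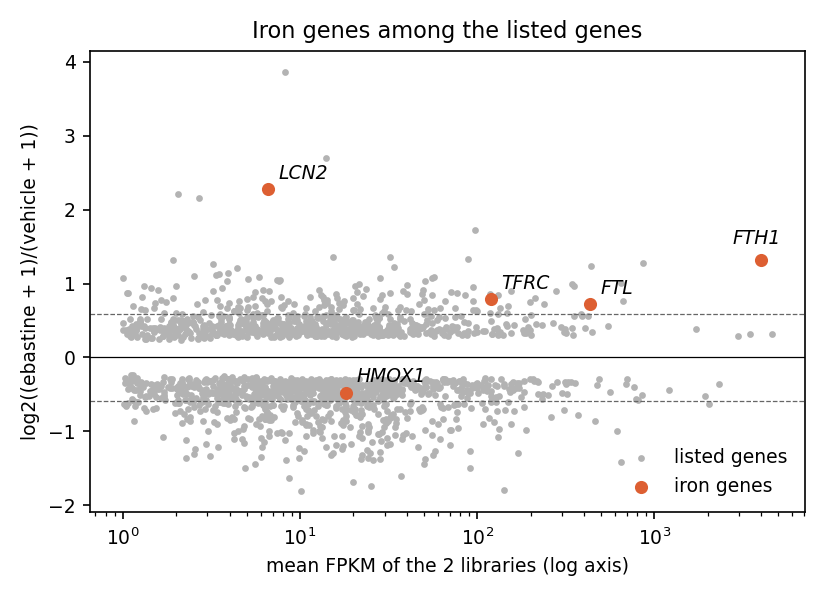
Log2 ratio of ebastine over vehicle, with 1 FPKM added to both values, against the mean FPKM on a log axis for the 1768 listed genes (grey) and the 5 iron genes (orange); dashed lines mark 1.5-fold. FTH1 lies at the high end of expression at 1.32, LCN2 at 2.27 among lower genes, and HMOX1 at -0.48 inside the dashed lines; the empty band around 0 is left by the table's limit on the p-value.

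Promoter letters are shown for the 3 of 5 members that a RefSeq table of GRCh38.p14 held, because all 3 were higher in the ebastine library; FTH1 and HMOX1 are not shown. Each is the 250 bases before the transcript start. The search covered both strands for ACGTG, the core bound by hypoxia-inducible factors, for TGACNNNGC, the antioxidant response element bound by NRF2, for GGGNNNNNCC, a loose NF-kB motif, and for GGGAATGTCC, a single spelling that the loose motif contains. Capitals mark GGGAATGTCC in LCN2 and ACGTG or its reverse complement in TFRC and FTL.
LCN2, chr9:128149203-128149452, plus strand: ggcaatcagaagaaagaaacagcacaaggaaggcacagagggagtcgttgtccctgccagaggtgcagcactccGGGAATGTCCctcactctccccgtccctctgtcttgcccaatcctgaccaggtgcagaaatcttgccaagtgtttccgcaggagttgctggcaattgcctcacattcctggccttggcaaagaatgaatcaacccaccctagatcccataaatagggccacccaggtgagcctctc
TFRC, chr3:196082091-196082340, minus strand: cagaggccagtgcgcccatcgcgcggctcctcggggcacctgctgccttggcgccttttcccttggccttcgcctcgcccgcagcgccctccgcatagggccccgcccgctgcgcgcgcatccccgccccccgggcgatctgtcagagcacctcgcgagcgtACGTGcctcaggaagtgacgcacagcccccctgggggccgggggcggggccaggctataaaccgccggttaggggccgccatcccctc
FTL, chr19:48965059-48965308, plus strand: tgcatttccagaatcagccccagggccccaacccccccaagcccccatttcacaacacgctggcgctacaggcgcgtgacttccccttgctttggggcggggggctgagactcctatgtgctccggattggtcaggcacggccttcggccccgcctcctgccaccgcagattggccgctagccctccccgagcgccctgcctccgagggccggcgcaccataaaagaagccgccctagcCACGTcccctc
GGGAATGTCC began 176 bases before the LCN2 start, and 0.0683% of 35116 promoters of the same length held it. That spelling was picked because it stands in the LCN2 promoter, and the loose GGGNNNNNCC stood in 54.4% of promoters, TFRC and LCN2 among them. ACGTG began 88 bases before the TFRC start, and its reverse complement 11 bases before the FTL start; 18.5% of promoters held it. TGACNNNGC, held by 10.9% of promoters, was not among the letters of these 3 windows. These are matches of letters and no binding was measured.

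The iron lists cover iron handling, enzymes that hold non-haem iron, NRF2 targets and regulators of HMOX1, NF-kB genes and ferroptosis. They are 10 lists of 164 genes, of which 32 were in the table. Among the 31 with a mean FPKM of 1 or more, members included, 20 were higher and 11 lower, and their median log2 ratio was 0.41; of the 1768 genes, 43.0% were higher and 57.0% lower. Of the 31, 10 were on the list of non-haem iron enzymes and 8 on the NRF2 list, so the counts are not of iron handling alone. Without the 5 members 16 were higher and 10 lower, with a median of 0.38. The table holds only genes past the authors' p-value limit, so these medians leave out genes with small or no difference, and no value is used for genes outside it. The lists were written with earlier results of these data known, so their counts and medians are not independent of these data, also without the members.

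The uptake list had 6 of 16 genes listed, of which 5 were higher and 1 lower, beside 43.0% higher and 57.0% lower among the 1768 genes. The higher ones include the members TFRC and LCN2, which were chosen from this same contrast. STEAP2 is a metalloreductase that can reduce ferric iron, STEAP1 belongs to the same protein family, and both are abundant in prostate cells. STEAP2 went from 76.9 to 120.7 FPKM, 1.56-fold higher, and STEAP1 from 173 to 223.5 FPKM, 1.29-fold higher. The reported STEAP2 locus spans 70.1 kb and its RefSeq gene 31.7 kb, so the STEAP2 value can include other transcripts. The iron transporter SLC11A2, which moves iron out of endosomes after transferrin uptake, stood at 20.2 and 25.4 FPKM. The zinc, manganese and iron importer SLC39A8 was the lower one, at 129 and 98.3 FPKM. In the authors' deposited table STEAP2 had a q-value of 0.00178, and those of STEAP1, SLC11A2 and SLC39A8 were 0.140, 0.282 and 0.0942.

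Of the 7 storage genes only FTH1 and FTL were listed. Of the 10 genes on the list for iron-responsive element binding, ACO1 was listed, which encodes the protein that binds the element when it lacks its iron-sulphur cluster. ACO1 measured 17.6 FPKM in the vehicle library and 24.2 FPKM in the ebastine library, 1.35-fold higher, with a q-value of 0.0550 in the authors' deposited table. None of the 9 iron export genes and none of the 25 genes of iron-sulphur clusters and mitochondrial iron was in the table. Of all genes tested by the authors 14.2% are listed, so with lists this short the number listed says little about a list, and how many of their genes were tested is unknown.

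Of 22 genes of haem synthesis and breakdown 3 were listed, HMOX1, CPOX and FLVCR2. CPOX, an enzyme late in haem synthesis, measured 21.3 FPKM in the vehicle library and 15.2 FPKM in the ebastine library. FLVCR2, a transporter of the FLVCR family, stood at 1.18 and 1.87 FPKM, a low level. With 1 FPKM added to both values, HMOX1 and CPOX were 1.39-fold and 1.37-fold lower and FLVCR2 1.32-fold higher; the deposited values of FLVCR2 alone give 1.58-fold. Of the 3 genes, only HMOX1 had a q-value below 0.05 in the authors' deposited table.

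Of 22 genes on the NRF2 list 8 were listed, 6 with a higher and 2 with a lower value. Of the 1768 genes, 43.0% were higher and 57.0% lower. On the list, 4 of the higher genes and 0 of the lower ones had a q-value below 0.05 in the authors' deposited table. Among the 1768 genes, 269 of the 761 higher and 478 of the 1007 lower ones had such a q-value. With so few genes on the list, a difference from these shares was not tested. The autophagy receptor SQSTM1 went from 69.5 to 118.9 FPKM, and the pentose phosphate enzyme PGD went from 104 to 157 FPKM. The quinone reductase NQO1 stood at 65.4 and 87.3 FPKM, 1.33-fold higher, with a q-value of 0.0737 in the authors' deposited table. MAFG, a partner of NRF2, stood at 6.70 and 8.50 FPKM, with a q-value of 0.237 in the authors' deposited table. AKR1C1, with a q-value of 0.0463 in the authors' deposited table, stood at only 0.454 and 1.66 FPKM. Its reported locus of 236 kb overlaps 1 other listed gene and can include other genes. The reported loci of SQSTM1 and SLC7A11 were also wider than their RefSeq genes, at 61.2 kb against 31.7 kb and 215 kb against 78.3 kb. The genes with lower values were the glutathione enzyme GCLC, at 16.2 and 12.4 FPKM, and the cystine transporter SLC7A11, at 13.97 and 10.4 FPKM; in the authors' deposited table their q-values were 0.134 and 0.0563. SLC7A11 is also on the ferroptosis list, where 2 of 13 genes were listed; the other was the lipid enzyme ACSL4, at 1.52 and 2.58 FPKM.

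Enzymes that hold non-haem iron went both ways. Of 23 genes 10 were listed, 4 higher and 6 lower, near the 43.0% higher and 57.0% lower of the 1768 genes. Their median log2 ratio was -0.35, beside -0.32 over the 1768 genes, so the split is no result about these enzymes. The 4 higher genes all act on lipids. They were the fatty acid desaturases SCD, at 261 and 616 FPKM, and FADS2, at 468 and 630.7 FPKM, and the sterol enzymes MSMO1 and SC5D, which were 2.10-fold and 1.54-fold higher. The lower genes included the collagen hydroxylases PLOD2, at 14.6 and 5.09 FPKM, P4HA1, at 104 and 70.8 FPKM, and PLOD1, at 83.6 and 65.7 FPKM. The oxygen-sensing hydroxylases EGLN3 and EGLN1 were 1.69-fold and 1.28-fold lower, and the ribonucleotide reductase subunit RRM2 was 1.59-fold lower. In the authors' deposited table the q-values of FADS2, PLOD1 and EGLN1 were 0.129, 0.184 and 0.214, and those of the other 7 were 0.00178.

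Of 19 NF-kB genes that often accompany LCN2, RELB was the only one listed. RELB measured 0.539 FPKM in the vehicle library and 1.04 FPKM in the ebastine library, under the minimum mean of 1 FPKM. The chemokines, NFKBIA and NFKBIZ on that list were not in the table. Beside the 14.2% of all tested genes that are listed, 1 of 19 is no result about the list.

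**Figure D3:**
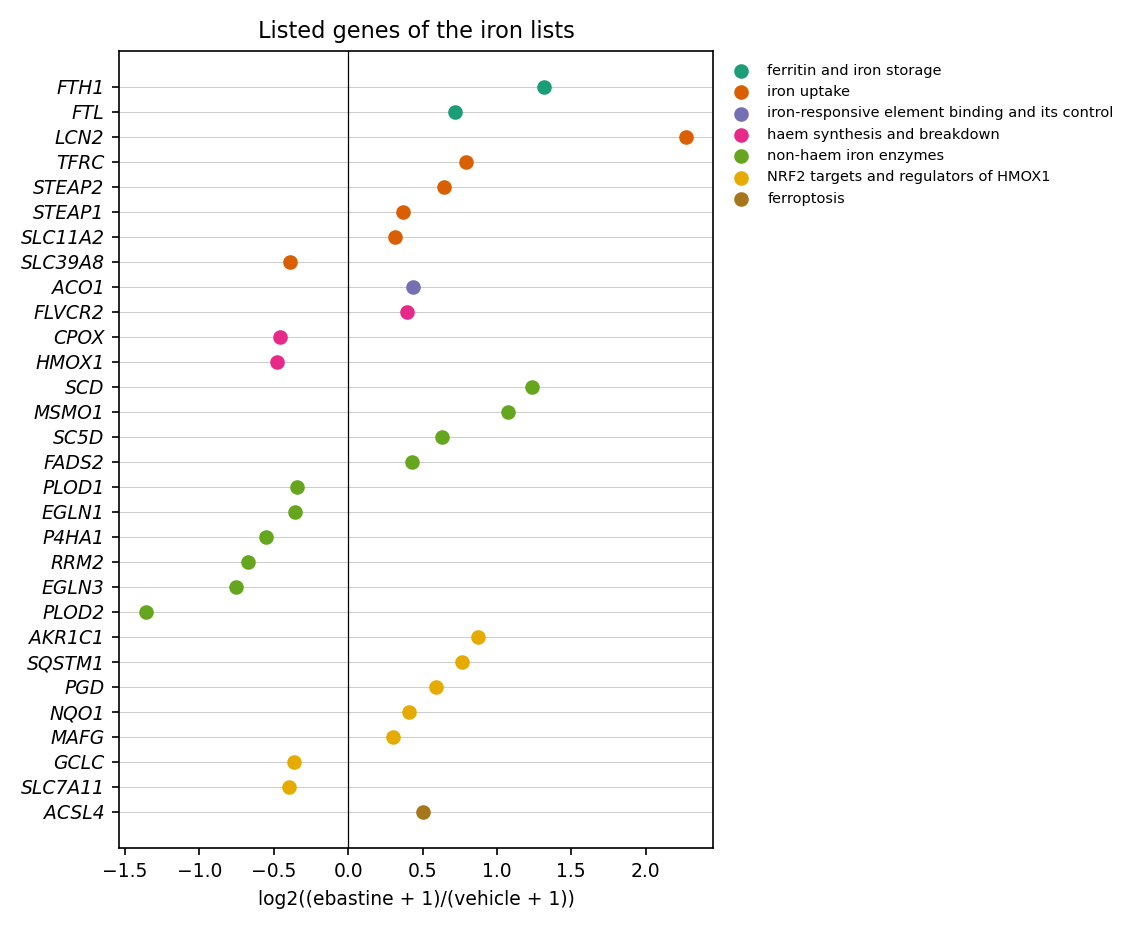
Log2 ratio of ebastine over vehicle, with 1 FPKM added to both values, of 30 of the 31 listed genes of the iron lists with a mean FPKM of 1 or more, 1 point per gene coloured by list (a gene on several lists is shown on the first). The storage genes, which are the members FTH1 and FTL, lie to the right of 0. Most uptake genes do so too, with the members TFRC and LCN2 among them. HMOX1 and CPOX lie to the left, and the non-haem iron enzymes on both sides, from PLOD2 at -1.36 to SCD at 1.24.

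The listed genes most like each member were taken by distance over 2 values, log2(FPKM + 1) in each library, which rests on level as much as on ratio. For FTH1 they were the ribosomal protein genes RPL38, RPL36 and RPLP1, but at distances of 0.71 to 0.86 and with ratios of only 1.25-fold, 1.22-fold and 1.24-fold. No listed gene thus lay close to FTH1 by this measure. For FTL they were NUCB2, CD63 and PSAP, with ratios of 1.48-fold, 1.47-fold and 1.51-fold at distances of 0.11 to 0.24. CD63 is a membrane protein of late endosomes and lysosomes and PSAP encodes the precursor of lysosomal saposins. NUCB2 was nearer to FTL than either, at 0.11, and a function shared by the genes near a member was not tested. For TFRC they were RDH11, TCEAL4 and CSTB, with ratios of 1.82-fold, 1.52-fold and 1.80-fold. For LCN2 they were NOS3, CCDC64 and FGF13, 0.80 to 0.88 away and with ratios of 2.31-fold, 2.08-fold and 2.12-fold. For HMOX1 they were CDC27, CPOX and RBBP8, within a distance of 0.044, and CPOX is the haem synthesis gene named above.

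The labelled cell type was checked against markers. Of 9 prostate luminal markers 4 were in the table, KLK3, KLK2, TMPRSS2 and FOLH1, and they went both ways. Levels with vehicle and ebastine were 2476 and 1599 FPKM for KLK3, 465 and 272 FPKM for KLK2, and 362 and 289 FPKM for TMPRSS2. FOLH1 was higher, at 495 and 840.4 FPKM. Of 13 basal, leukocyte, macrophage, fibroblast and erythroid markers 0 were in the table, so no level of theirs is used. Median FPKM over the listed genes was 10.5 with vehicle and 9.49 with ebastine, and the sequencing depth is unknown.

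**Figure D4:**
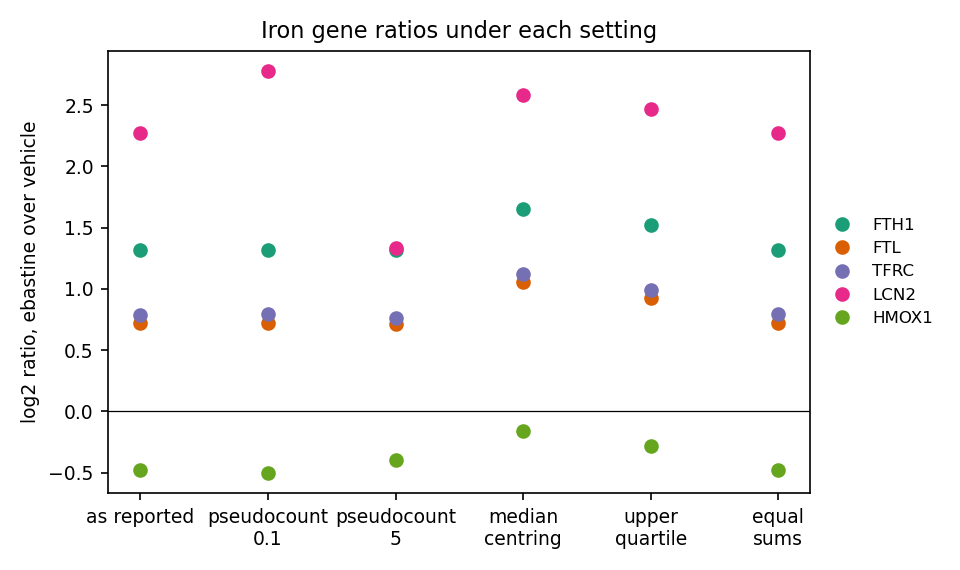
Log2 ratio of ebastine over vehicle of the 5 iron genes as reported and under 2 other pseudocounts and 3 rescalings of the ebastine values; each point is 1 gene under 1 setting. FTH1, FTL, TFRC and LCN2 stay above 0 and HMOX1 below it, between -0.50 and -0.16, and LCN2 moves most with the pseudocount. A pseudocount cannot change a sign and each rescaling raises the ebastine values, so only HMOX1 could have crossed 0.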

How the data were processed

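Polyadenylated RNA from 1 vehicle and 1 ebastine library was used. TopHat2, Cuffdiff and hg19 come, with no version, from the submitters' processing notes; gene models, strand use and the assignment of reads with several matches are not stated there. Per the file headers, the deposited FPKM values, the authors' log2 fold change, test statistic (a score, not used here), p-value and q-value have the layout of a Cuffdiff comparison. The deposited q-values fit 13714 tested genes, of which the 1947 with p-values up to 0.0499 are listed. No counts are given, so depth is unknown and no counting interval was computed. Locus starts were converted from 0-based.

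Ratios were log2((ebastine FPKM + 1)/(vehicle FPKM + 1)), a scale that understates the change of low genes; genes were counted only where the mean was 1 FPKM or higher (1768 genes). Genes named were the 5 members, every listed gene of the 10 lists (matched by current and older symbols), the 3 listed genes nearest each member and cell type markers; 1 listed gene of the lists is counted but not reported here by name. Members and lists were chosen with earlier results of these data known. Alternatives were pseudocounts of 0.1 and 5 FPKM, 3 rescalings, 2 filters and a 2-fold limit. The functions were tested on simulated data. Python 3.11.15, numpy 2.4.6 and pandas 2.3.3 were used.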

Additional observations from a re-analysis of the deposited data

How the results depend on the processing

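Every member kept its direction under the 2 other pseudocounts and the 3 rescalings. A pseudocount cannot change the sign of a ratio, and all 3 rescalings scaled ebastine up, by equal sums only 1.001 times. Only HMOX1 under a rescaling could thus have changed direction. The LCN2 log2 ratio was 2.78 with a pseudocount of 0.1 FPKM and 1.33 with 5 FPKM, since its vehicle value is low. Median centring scaled ebastine up 1.26 times (a log2 shift of 0.34, which took the median of all genes from -0.32 to -0.02) and gave 1.65 for FTH1, 1.05 for FTL, 1.12 for TFRC, 2.585 for LCN2 and -0.16 for HMOX1. Equal upper quartiles (0.21 on the log2 scale) gave 1.52, 0.92, 0.99, 2.46 and -0.29 in the same order. These rescalings add nearly the same amount to every gene, so they do not alter the order of the members. The number of members at least 1.5-fold higher was 4 in each of these settings and became 2 at a limit of 2-fold. The counts of 20 higher and 11 lower iron list genes were 17 and 11 with a minimum mean of 5 FPKM and 21 and 11 with no filter. Over all genes, the 171 at least 1.5-fold higher became 263 and 84 with the lower and higher pseudocount, 715 after centring and 435 with equal upper quartiles, and the 328 lower became 432 and 179 with those pseudocounts, 123 and 185 with those rescalings; at 2-fold they were 32 and 86. A log2 ratio was taken as moved beyond 0.1, since no replicate spread or counting interval exists. No paired analysis was possible because each group held 1 library. Rescalings use the filtered table, whose genes all passed the authors' p-value limit.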

Other observations

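The hairpin letters searched in TFRC and FTL were also counted over the listed genes. Of 1596 listed genes with a mean FPKM of 1 or more and a protein-coding transcript of the same name in GENCODE release 29, 29 held a match anywhere in a transcript, coding sequence included. These 29 include the members TFRC and FTL, which were chosen from this same contrast. Whether FTH1 or HMOX1 is also among the 29 is not given here. Of the 29, 14 were higher with ebastine, and the median log2 ratio of the 29 was -0.33. Of all 1596 genes 686 were higher, with a median of -0.32. The glycolytic enzyme gene GPI, chosen after its values were seen, was the only listed gene besides TFRC with more than 1 match; it held 2 and measured 259 FPKM in the vehicle library and 183 FPKM in the ebastine library.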
